A study of Mus musculus with 12 samples.

Results

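During meiotic prophase the ends of the chromosomes are fixed to the nuclear envelope. Here 8 genes of that attachment and of the envelope were followed in synchronised mouse spermatocytes with and without Zfp541. The genes were Terb1, Terb2, Majin, Sun1, Sun2, Spdya, Lmnb1 and Lmnb2. They were taken by symbol from the deposited gene table, which matched each symbol to 1 row, and are 8 of the 55450 genes counted. All 8 passed the filter on low counts that left 20279 genes to test. The material was 12 single-cell libraries, 3 in each of 4 groups: Zfp541-/- (KO) collected 360 h after retinoic acid, wild type (WT) at 360 h, KO at 260 h and WT at 260 h. All animals were C57BL/6 mice that were fed WIN 18,446, an inhibitor of retinoic acid synthesis, for 7 days from 2 days after birth and were injected with retinoic acid on day 8, so that KO and WT alike came from drug-synchronised first-wave testes. The labels call the 360 h cells late pachytene and the 260 h cells early pachytene. Single cells of the digested testis were picked by mouth pipette. The labels give no detail of the Zfp541 allele and do not tie libraries to animals. Every p-value below is therefore set against variation among the 3 libraries of a group, some of which may be technical.

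Telomeres are tethered by a complex of TERB1, TERB2 and MAJIN. TERB1 binds the shelterin protein TRF1 at the telomere, TERB2 joins TERB1 to MAJIN, and MAJIN is anchored in the inner nuclear membrane. SUN1 and SUN2 span that membrane and, through the KASH protein KASH5 in the outer membrane, link telomeres to dynein in the cytoplasm. Spdya encodes Speedy A, an activator of CDK2 that sits at meiotic telomeres. Lmnb1 and Lmnb2 encode B-type lamins, the filaments under the inner membrane, and Lmnb2 also encodes the germ-cell isoform lamin B3. ZFP541 is a zinc finger protein of spermatocytes that acts in a histone deacetylase complex.

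The RefSeq promoter table (GRCm38.p6, the assembly also called mm10) held 300-base windows, 250 bases before and 50 after the gene start, for 5 of the 8 genes: Terb1, Sun1, Sun2, Spdya and Lmnb2. The windows of Terb1 (chr8:104509838-104510137, minus strand) and Spdya (chr17:71551811-71552110, plus strand) are shown because these genes were the ones that rose with time in WT cells. Capitals mark ATTGG, which is the CCAAT box read on the other strand.
Terb1 promoter: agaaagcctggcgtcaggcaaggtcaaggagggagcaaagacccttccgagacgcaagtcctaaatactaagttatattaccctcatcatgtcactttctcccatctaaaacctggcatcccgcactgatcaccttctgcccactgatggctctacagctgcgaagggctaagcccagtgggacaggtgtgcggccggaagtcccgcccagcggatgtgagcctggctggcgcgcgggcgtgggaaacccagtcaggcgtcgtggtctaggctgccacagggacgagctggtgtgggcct
Spdya promoter: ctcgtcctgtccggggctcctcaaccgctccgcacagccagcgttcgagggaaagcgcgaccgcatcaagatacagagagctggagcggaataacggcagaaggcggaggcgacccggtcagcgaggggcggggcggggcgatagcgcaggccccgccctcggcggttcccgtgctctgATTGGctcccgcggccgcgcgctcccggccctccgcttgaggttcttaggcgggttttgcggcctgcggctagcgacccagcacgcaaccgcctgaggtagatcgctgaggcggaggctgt
CCAAT on either strand was present in 37.4% of all 32544 promoter windows. The Spdya window held 1 match, 71 bases before the start, the Sun1 and Sun2 windows held 2 each, and the Terb1 and Lmnb2 windows held 0. Sun1 and Lmnb2 each had 2 listed promoters, of which only the window nearest the start of the counted gene was searched. CNGTT, the core bound by MYB factors, was searched on both strands and occurred in 80.2% of windows, with 4 matches in Spdya, 1 in Lmnb2 and 0 in Terb1, Sun1 and Sun2. TGACGT, the core of a CRE site, occurred in 7.55% of windows and in none of these 5. No match of one motif shared bases with a match of another, and the matches are matches of letters only.

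Levels below are counts of unique molecular identifiers (UMIs, which mark single cDNA molecules) summed over the kept cells of a library and given as CPM, counts brought to a common library total with TMM scaling. Libraries held 50 to 94 kept cells and 3601518 to 27202665 gene UMIs, deepest in WT at 360 h. A gene was called at an adjusted p under 0.05 by edgeR's quasi-likelihood test, two-sided, with Benjamini-Hochberg adjustment over all genes tested. Zfp541 itself had 155, 130.0 and 150.1 CPM in the KO libraries and 199, 177 and 168 CPM in the WT libraries at 360 h, and 122, 98.8 and 74.5 CPM in KO and 38.0, 83.8 and 129 CPM in WT at 260 h. These are 3′-end counts and the labels do not place the deletion, so the level does not check the genotype. The 8 late pachytene markers summed to 3013 to 4394 CPM in KO and 4453 to 7408 CPM in WT libraries at 360 h, against 471 to 873 CPM in KO and 1041 to 1929 CPM in WT libraries at 260 h. WT libraries 1 and 2 at 260 h stood apart: they held 81 of the 88 cells of k-means cluster 2 in the authors' deposited cell table, and their 6 macrophage markers summed to 50.9 and 73.5 CPM, with 0 of the 6 at 0, against 2.73 to 8.37 CPM in the other 10 libraries. Their 6 Leydig markers summed to 96.9 and 58.4 CPM, against 9.60 to 24.5 CPM elsewhere.

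**Figure D1:**
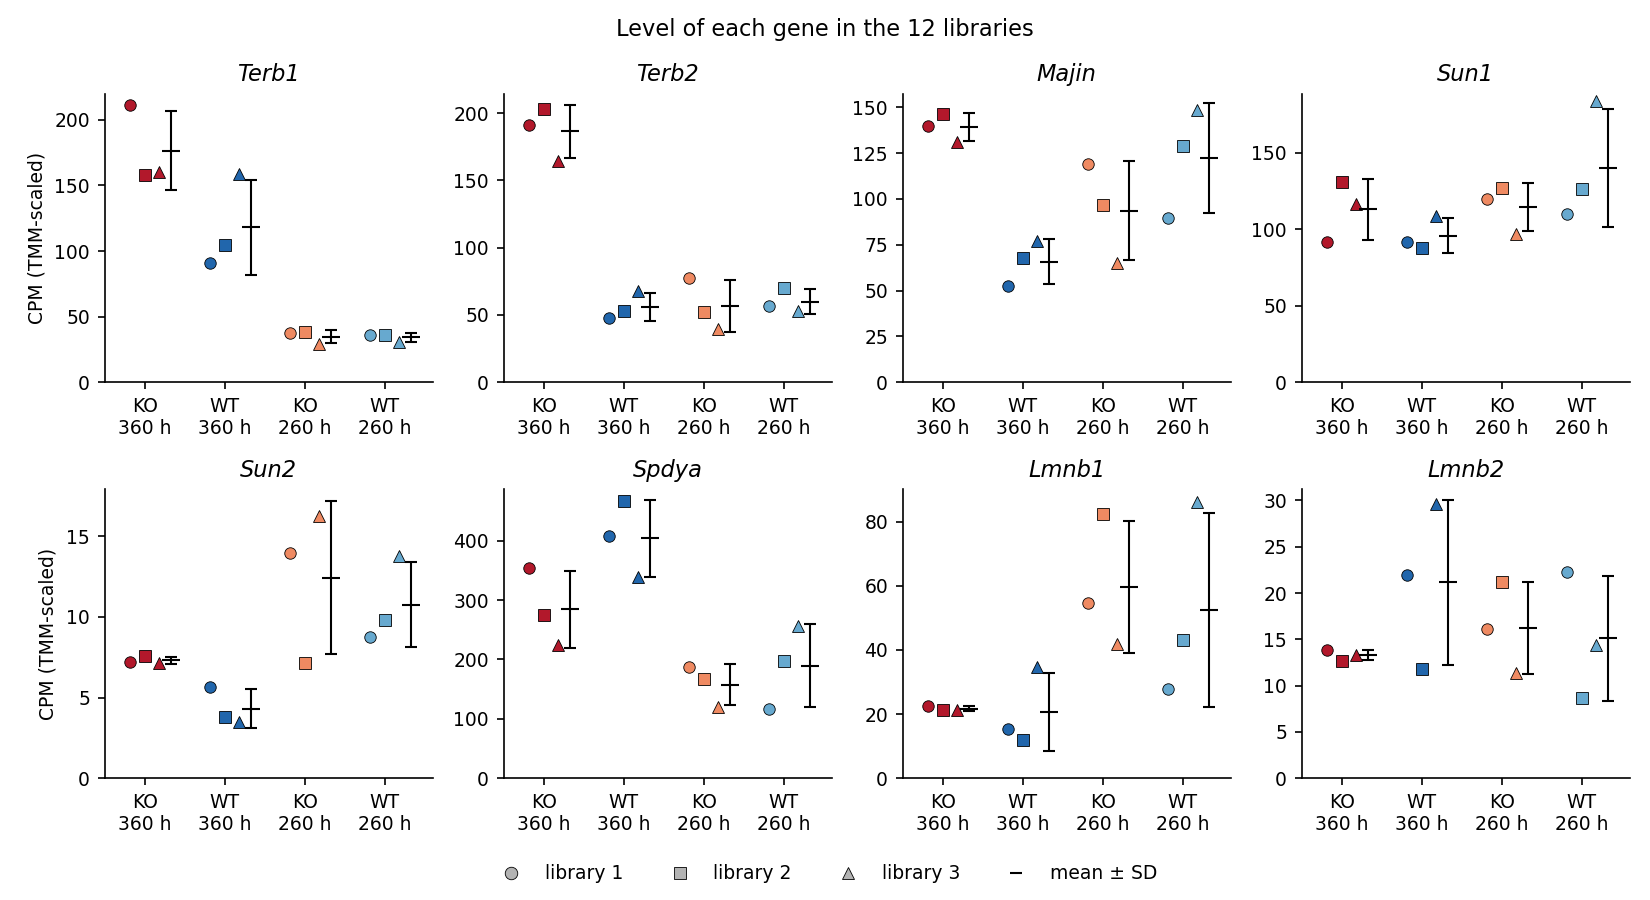
CPM of the 8 genes in each of the 12 libraries (symbols number the libraries of a group), with the mean and SD of the 3 libraries beside them; each panel has its own linear axis from 0. The KO libraries at 360 h lie above the WT libraries at 360 h for Terb2 and Majin, and both genotypes at 360 h lie above 260 h for Terb1.

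At 360 h, 2 subunits of the telomere linker, Terb2 and Majin, were higher in KO cells than in WT cells. The other linker gene, Terb1, was not called, and 0 of the 8 genes were lower. Over all genes tested, 22.5% were called in this comparison, 8.93% higher and 13.5% lower, against 2 of 8 higher here. The KO and WT libraries did not overlap for 3 of the 8 genes (Terb2, Majin and Sun2), against 44.2% of all genes tested. The median log2 fold change was 0.41 over the 8 genes and 0.03 over all genes tested.

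Terb2 (ENSMUSG00000027229.5, mm10 chr2:122186272-122206397, plus strand) encodes the middle subunit of the linker. It had 192, 203 and 165 CPM in the KO libraries at 360 h, against 47.8, 52.7 and 67.8 CPM in the WT libraries at 360 h, from 522 to 1982 UMIs a library. All 3 KO libraries were above every WT library. The means were 186 ± 19.7 CPM in KO and 56.1 ± 10.4 CPM in WT (SD, n = 3 each), a log2 fold change of 1.73 ± 0.28 (SE; edgeR adjusted p = 4.38e-04), or 3.32-fold. The call was lost under 1 of 16 alternatives, scaling by spike-in UMIs, where the log2 fold change was 1.15 and the edgeR adjusted p 0.109.

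Majin (ENSMUSG00000024786.9, mm10 chr19:6184388-6224225, plus strand) encodes the membrane anchor. It had 139.5, 146 and 131 CPM in the KO libraries at 360 h, against 52.5, 67.7 and 76.9 CPM in the WT libraries at 360 h. The groups did not overlap. The means were 139 ± 7.64 CPM in KO and 65.7 ± 12.3 CPM in WT (SD, n = 3 each), a log2 fold change of 1.08 ± 0.28 (SE; edgeR adjusted p = 0.0114). Without KO library 2 the edgeR adjusted p was 0.0544, without WT library 1 it was 0.0780, and with spike-in scaling it was 0.520 at a log2 fold change of 0.52.

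Terb1 (ENSMUSG00000052616.10, mm10 chr8:104446719-104509910, minus strand) encodes the subunit at the telomere. It had 211, 158 and 160.2 CPM in the KO libraries at 360 h, against 90.8, 104 and 159 CPM in the WT libraries. WT library 3 reached the lower KO libraries, so the groups overlapped. The log2 fold change was 0.58 ± 0.26 (SE; adjusted p = 0.129, edgeR), with a 95% interval of 0.02 to 1.14. With spike-in scaling it was -0.06.

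Spike-in scaling moved every gene. The ERCC sequences, synthetic RNAs added to each cell, took 7.07% to 7.50% of UMIs in KO libraries at 360 h and 3.10% to 5.67% in WT libraries at 360 h, so their share differed with genotype. Over all genes tested the median was -0.48 under that scaling, against 0.03 under TMM, a shift of -0.52. Relative to that median, Terb2 stood at 1.63, Majin at 1.00 and Terb1 at 0.42, against 1.70, 1.05 and 0.55 relative to the median under TMM. Subtracting the median takes out the shift that spike-in scaling adds. These values therefore do not test whether the change holds under that scaling.

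A ratio of UMIs within a library does not depend on any scaling, and was added after the levels had been seen. Terb2 gave 54.2, 73.8 and 73.3 UMIs per 100 Spdya UMIs in the KO libraries at 360 h, against 11.8, 11.3 and 20.1 in the WT libraries. Majin gave 39.5, 53.2 and 58.4 per 100 Spdya UMIs in KO at 360 h and 12.9, 14.5 and 22.7 in WT at 360 h. Terb1, which was not called, also separated, at 59.7, 57.4 and 71.3 per 100 Spdya UMIs in KO and 22.3, 22.3 and 47.0 in WT at 360 h. Separation over Spdya was thus not particular to Terb2 and Majin. Majin per 100 Terb2 UMIs was lower in KO, at 72.8, 72.1 and 79.7, against 110, 128 and 113 in WT at 360 h. Terb2 gave 90.8, 128 and 103 per 100 Terb1 UMIs in KO at 360 h and 52.7, 50.5 and 42.6 in WT at 360 h. Majin per 100 Terb1 UMIs nearly met, at 66.1, 92.6 and 81.9 in KO and 57.8, 64.9 and 48.3 in WT at 360 h. These ratios are a description, with no test: Terb2 and Majin were picked for being higher in KO, Spdya itself was at a log2 fold change of -0.51 in KO, and a ratio carries both. At 260 h the genotypes overlapped for Terb2 per 100 Spdya, at 41.5, 31.5 and 32.9 in KO and 48.6, 35.6 and 20.8 in WT. They also overlapped at 260 h for Majin per 100 Spdya (54.4 to 63.6 in KO, 58.2 to 77.1 in WT). The same held for Terb2 per 100 Terb1 (136 to 208 in KO, 156 to 194 in WT). It held as well for Majin per 100 Terb1 (226 to 319 in KO, 247 to 489 in WT).

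**Figure D2:**
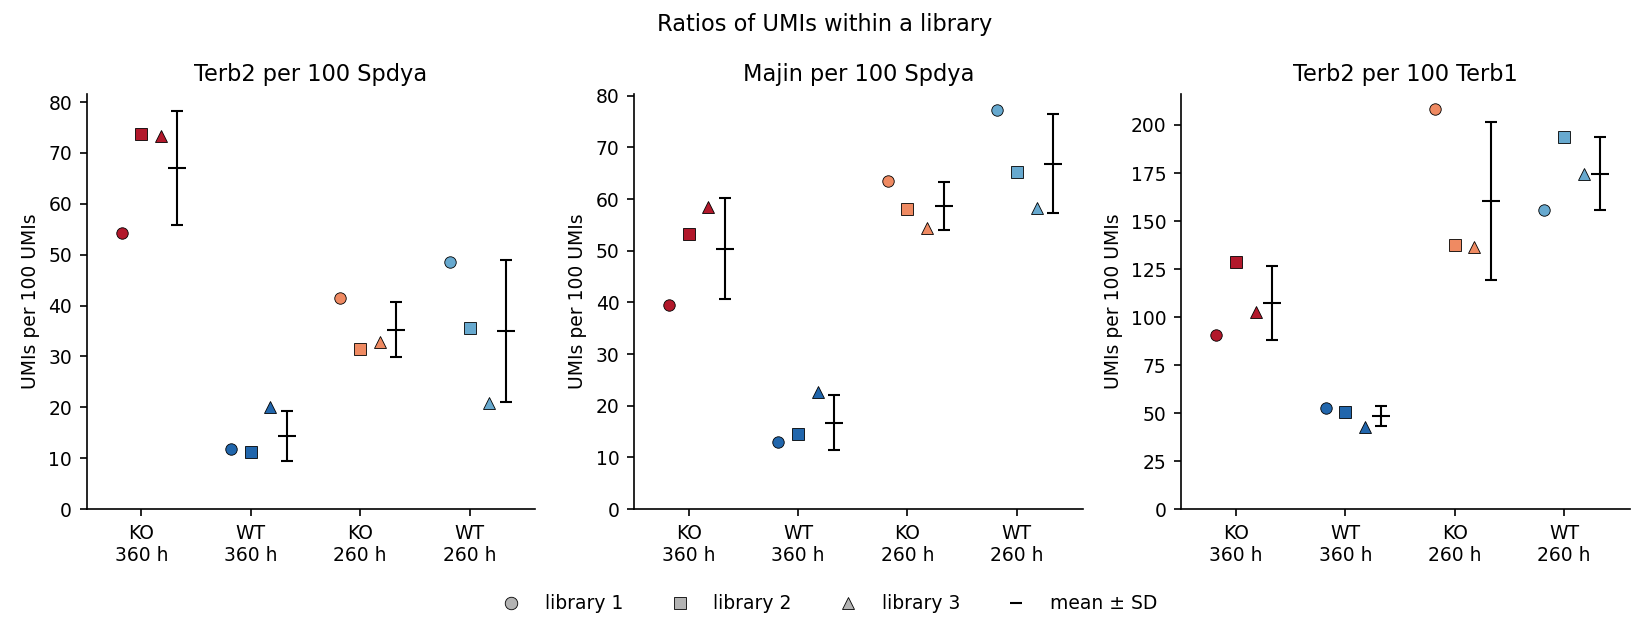
UMIs of Terb2 or Majin per 100 UMIs of Spdya or Terb1 in the same library, on linear axes from 0, with the mean and SD of 3 libraries. WT at 360 h is the lowest group in each panel, with Terb2 at 11.3 to 20.1 and Majin at 12.9 to 22.7 per 100 Spdya UMIs.

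The SUN genes were not called between the genotypes at 360 h. Sun1 (ENSMUSG00000036817.14, mm10 chr5:139200637-139249840, plus strand) encodes the SUN protein that meiotic telomere attachment depends on most. It had 91.8, 131 and 116 CPM in KO libraries and 91.5, 87.5 and 109 CPM in WT libraries at 360 h, a log2 fold change of 0.24 ± 0.26 (SE; adjusted p = 0.543, edgeR). The antisense gene 4930520M14Rik, which shares 302 exonic bases with Sun1, had 2 UMIs in all. Sun2 (ENSMUSG00000042524.14, mm10 chr15:79724070-79742536, minus strand), a partly redundant relative of Sun1, had 7.19, 7.58 and 7.16 CPM in KO libraries and 5.68, 3.77 and 3.50 CPM in WT libraries at 360 h. The libraries of the genotypes did not overlap, but the values rested on 40 to 79 UMIs a library. The log2 fold change of Sun2 was 0.76 ± 0.45 (SE; adjusted p = 0.245, edgeR), with a 95% interval of -0.19 to 1.72. Sun2 shares 147 exonic bases with the antisense gene Gm16575, which had 82 UMIs in all, against 955 for Sun2, and the sources used here do not say whether counting used the strand.

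Spdya (ENSMUSG00000052525.14, mm10 chr17:71552061-71589533, plus strand) had 354, 275 and 225 CPM in KO libraries at 360 h, against 407, 467 and 338 CPM in WT libraries. The highest KO library exceeded the lowest WT library. The log2 fold change was -0.51 ± 0.30 (SE; adjusted p = 0.246, edgeR), with a 95% interval of -1.14 to 0.13. Spdya shares 402 exonic bases with the antisense gene Trmt61b, counted at 1138 UMIs in all against 33949 for Spdya, and 250 with the pseudogene Mettl4-ps1.

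The lamins were not called either. Lmnb1 (ENSMUSG00000024590.8, mm10 chr18:56707813-56753424, plus strand) had 22.6, 21.2 and 21.4 CPM in KO libraries and 15.5, 11.98 and 34.7 CPM in WT libraries at 360 h, a log2 fold change of 0.06 ± 0.44 (SE; adjusted p = 0.936, edgeR). Lmnb2 (ENSMUSG00000062075.13, mm10 chr10:80901203-80918245, minus strand) had 13.9, 12.7 and 13.3 CPM in KO libraries and 22.0, 11.8 and 29.6 CPM in WT libraries at 360 h, a log2 fold change of -0.67 ± 0.43 (SE; adjusted p = 0.289, edgeR). For both lamins the KO libraries lay close together inside the wider WT range. WT library 3, the highest of both, stood apart in depth, at a median of 286855 UMIs a cell, and in its spermatid markers, given next.

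Marker levels differed between the genotypes at 360 h as well, with the summed late pachytene markers lower in KO, as given above. The 7 spermatid markers summed to 3.39 to 6.94 CPM in KO and to 7.85, 8.84 and 199.98 CPM in WT libraries 1, 2 and 3. Without WT library 3, Terb2 differed by 1.88 (adjusted p = 7.90e-04), Majin by 1.198 (adjusted p = 0.0180) and Terb1 by 0.84 (adjusted p = 0.0540, edgeR). The 6 Leydig markers summed to 18.3 to 24.5 CPM in KO and 9.60 to 16.5 CPM in WT, with no overlap. The 8 Sertoli markers summed to 63.4 to 203 CPM in KO and 40.6 to 88.2 CPM in WT, the 6 peritubular and endothelial markers to 19.2 to 125 CPM in KO and 26.0 to 55.6 CPM in WT, and the 6 macrophage markers to 4.29 to 8.31 CPM in KO and 4.52 to 8.37 CPM in WT. At most 1 gene of each of these lists was at 0 in a library, except for 3 of the Leydig genes in WT library 2. Mitochondrial genes gave 1.95%, 2.28% and 2.47% of UMIs in the KO libraries and 1.41%, 1.54% and 1.04% in the WT libraries at 360 h, with no overlap. Pre-meiotic class cells made up 0%, 11.25% and 11.2% of the KO libraries at 360 h and 2.35%, 2.15% and 1.06% of the WT libraries at 360 h. Without them Terb2 differed by 1.85 (adjusted p = 1.89e-04) and Majin by 1.21 (adjusted p = 0.00250, edgeR). At 260 h, Star alone gave 19.4 of 20.6 CPM of the Leydig sum in WT library 3. It gave 11.8 of 14.8 CPM in KO library 1. Clu alone gave 217, 97.0 and 89.4 of the 263, 134 and 128 CPM of the Sertoli sum in the WT libraries at 260 h. The spermatid markers summed to 25.9 to 55.3 CPM in KO and 13.0 to 35.6 CPM in WT libraries at 260 h. Such sums can thus rest on a single gene or be higher at the earlier time, and need not measure these cell types. The part of the late pachytene, Leydig and Sertoli marker sums and the mitochondrial share in the result was not tested.

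Cells that the authors' deposited table classes as late pachytene gave calls for Terb2, Majin and also Terb1. The classes follow the authors' k-means clusters, which were made from the same counts. The p-values within a class, here and at 260 h, are therefore not independent of that choice of cells. In KO this class was 220 cells of k-means cluster 4 and in WT 267 cells of cluster 5, and none of the 10 leading genes of either cluster by fold was a marker of any list, late pachytene included. The early pachytene markers summed to 5681 CPM without TMM scaling in cluster 4 and 4378 in cluster 5, and the late pachytene markers to 3556 in cluster 4 and 4465 in cluster 5. In these cells alone 3 of the 8 genes were higher in KO and 0 lower, where 34.9% of all genes tested were called, 15.5% higher and 19.4% lower. Terb2 was higher by 1.92 ± 0.20 (SE; adjusted p = 2.13e-04), Majin by 1.29 ± 0.20 (SE; adjusted p = 0.00134) and Terb1 by 0.77 ± 0.24 (SE; adjusted p = 0.0325), all log2 in edgeR. Terb1 had 195, 156 and 164 CPM in KO libraries and 77.3, 87.6 and 136 CPM in WT libraries in this class. The calls of Terb2 and Majin held in 9 of 9 alternatives and that of Terb1 in 3 of 9. The edgeR adjusted p of Terb1 was 0.0561 with no filter on low counts and, leaving out 1 library, 0.151 without KO library 1, 0.0831 without KO library 2, 0.0880 without KO library 3, 0.103 without WT library 1 and 0.120 without WT library 2. Lmnb2 was not called in this class (log2 fold change -0.59, edgeR adjusted p = 0.248), but was at -0.93 (adjusted p = 0.0488) without WT library 2.

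The difference in these genes could also be read cell by cell. Each late pachytene class cell was thinned to 40000 UMIs, which all kept cells exceeded. The median cell then held 6, 8 and 7 Terb2 UMIs in the KO libraries and 1, 1 and 2 in the WT libraries. For Majin the medians were 5, 6 and 6 UMIs in KO and 1, 2 and 2 in WT, and for Terb1 8, 6.5 and 7 in KO and 3, 3 and 6 in WT. The lower quartile of Terb2 was 4, 6 and 5 UMIs in the KO libraries, and the upper quartile was 2, 2 and 3 UMIs in the WT libraries. Within each KO library the higher Terb2 level was thus spread over most cells rather than carried by a few. For Majin the lower quartiles were 3, 5 and 4 UMIs in the KO libraries and the upper quartiles 2, 3 and 4 in the WT libraries. For Terb1 the lower quartiles were 6, 5 and 5 UMIs in KO and the upper quartiles 4, 4 and 7 in WT. The quartiles of Majin and Terb1 thus crossed between some KO and WT libraries. Spdya medians were 12, 11 and 9 UMIs in KO and 13, 13 and 12 in WT.

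At 260 h none of the 8 genes was called between KO and WT by edgeR. Of all genes tested 1.89% were called, 0.582% higher and 1.31% lower. The median log2 fold change of the 8 genes was -0.03, and no member reached an unadjusted p of 0.05 or was called by DESeq2. Terb2 had 77.6, 52.4 and 39.3 CPM in KO libraries and 56.3, 70.2 and 53.1 CPM in WT libraries, a log2 fold change of -0.08 ± 0.28 (SE), with a 95% interval of -0.67 to 0.51. Majin had 119, 96.7 and 65.1 CPM in KO and 89.4, 129 and 149 CPM in WT, a log2 fold change of -0.39 ± 0.28 (SE) and an interval of -0.98 to 0.20. Terb1 had 37.3, 38.2 and 28.8 CPM in KO and 36.2, 36.3 and 30.4 CPM in WT. For all 8 genes the KO and WT libraries at 260 h overlapped, while 14.6% of all genes tested showed no overlap. Against WT library 3 alone, whose variation was assumed to be that of the other groups, 0 of the 8 genes were called, with log2 fold changes from -0.81 (Spdya) to 0.07 (Terb1) and a lowest edgeR adjusted p of 0.476.

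The classes at 260 h gave no call of a member either. In early pachytene class cells 3.17% of genes tested were called and 0 of the 8. That class was cluster 2 in WT libraries 1 and 2 and cluster 3 in WT library 3 and the KO libraries, and the 10 leading genes of cluster 2 included the macrophage gene C1qb and the Leydig gene Cyp11a1 but no early pachytene marker. In pre-meiotic class cells 0.0327% of genes tested were called and 0 of the 8. Majin was at 35.4, 31.0 and 19.9 CPM in pre-meiotic KO cells and 45.0, 56.1 and 78.9 CPM in WT cells, a log2 fold change of -1.05 ± 0.39 (SE; adjusted p = 0.366, edgeR). Spdya there differed by -1.03 ± 0.43 (SE; edgeR adjusted p = 0.441), and by -1.37 (adjusted p = 0.0498) without WT library 1.

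**Figure D3:**
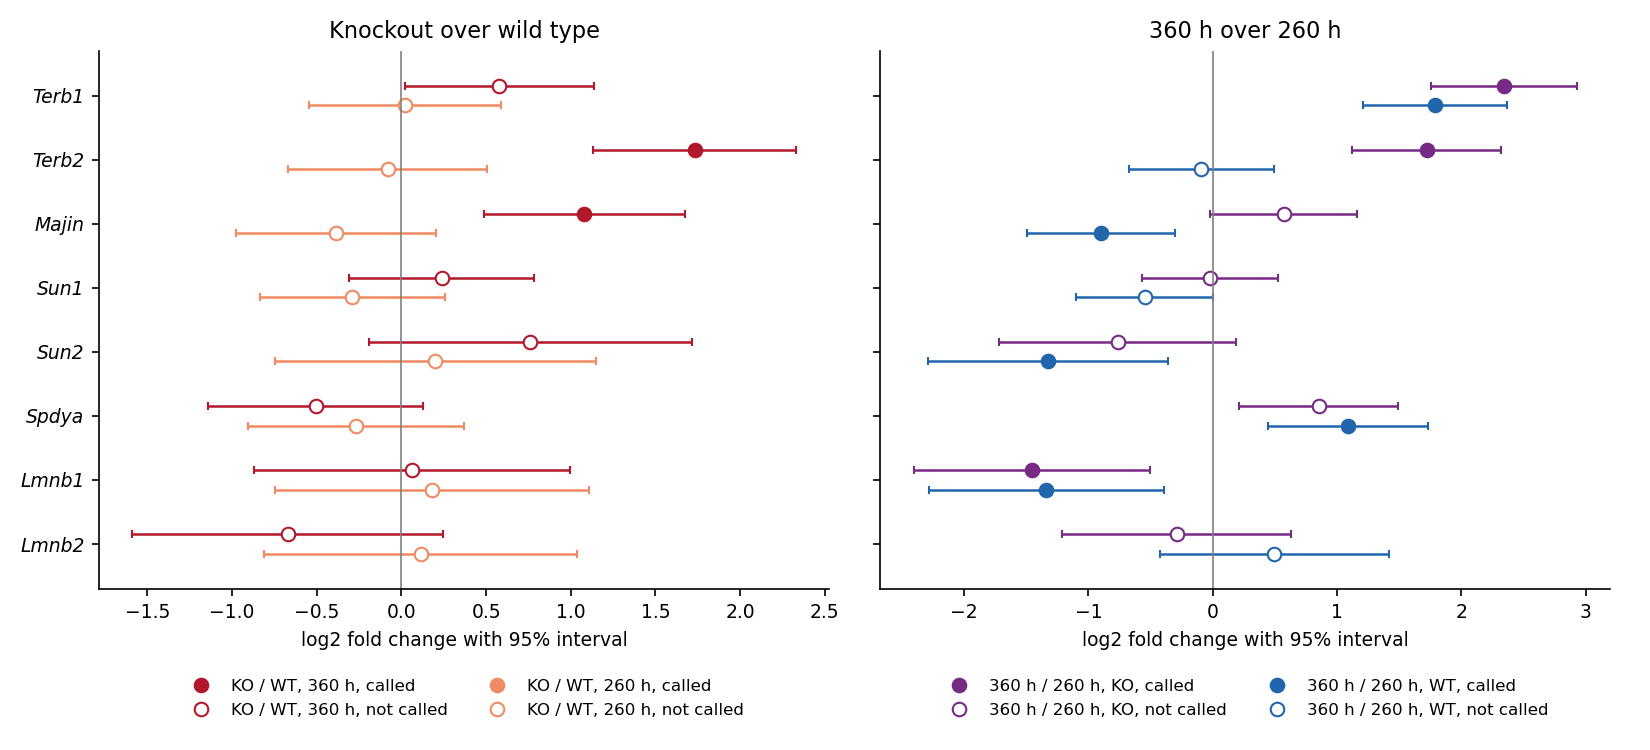
Log2 fold changes of the 8 genes with 95% intervals from edgeR, KO over WT at each time (left) and 360 h over 260 h in each genotype (right); filled points passed an adjusted p of 0.05. Terb2 at 1.73 and Majin at 1.08 are the filled points on the left, and Terb1 is filled in both genotypes on the right.

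The KO effect itself differed between the times for the same pair of genes. The effect at 360 h minus that at 260 h was 1.81 ± 0.39 for Terb2 (SE; adjusted p = 0.0146) and 1.47 ± 0.39 for Majin (SE; adjusted p = 0.0419), both on the log2 scale in edgeR, where 5.08% of all genes tested were called, 2.3% higher and 2.78% lower. For Terb1 it was 0.56 ± 0.37 (SE; edgeR adjusted p = 0.437), and the other 5 genes ranged from -0.78 to 0.56 and were not called. The Terb2 value was called in 19 of 22 alternatives. Its edgeR adjusted p was 0.0571 without KO library 2 at 360 h, 0.0903 with WT library 3 as the lone WT library at 260 h, and 0.332 with spike-in scaling. The Majin value was called in 8 of 22, with edgeR adjusted p-values up to 0.443, and leaving out any library but WT library 1 or KO library 1 at 260 h or WT library 3 at 360 h ended the call, with adjusted p-values of 0.0679 to 0.125.

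Over time in KO libraries Terb1 and Terb2 rose and Lmnb1 fell, in a comparison where 23.5% of all genes tested were called, 13.3% higher and 10.2% lower. Pre-meiotic class cells made up 28.0%, 28.6% and 36% of the KO libraries at 260 h, against 0%, 11.25% and 11.2% at 360 h. The mix of classes thus differed between the times. Terb1 averaged 176 ± 29.9 CPM at 360 h and 34.8 ± 5.16 CPM at 260 h in KO (SD, n = 3 each), a log2 fold change of 2.34 ± 0.28 (SE; edgeR adjusted p = 5.03e-05), or 5.07-fold. Terb2 averaged 186 ± 19.7 CPM at 360 h and 56.4 ± 19.4 CPM at 260 h, a log2 fold change of 1.72 ± 0.28 (SE; edgeR adjusted p = 5.81e-04). Both calls held in 16 of 16 alternatives. Majin averaged 139 ± 7.64 CPM at 360 h and 93.5 ± 27.0 CPM at 260 h and was not called (log2 fold change 0.57 ± 0.28, SE; edgeR adjusted p = 0.151).

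Lmnb1 in KO had 22.6, 21.2 and 21.4 CPM at 360 h, against 54.7, 82.4 and 41.8 CPM at 260 h, with no overlap. The log2 fold change was -1.46 ± 0.45 (SE; adjusted p = 0.0280, edgeR). The edgeR adjusted p was 0.0755, 0.0798 and 0.106 without KO library 1, 2 or 3 at 360 h, 0.0773 and 0.167 without KO library 1 or 2 at 260 h, and 0.263 with spike-in scaling. Spdya in KO had 354, 275 and 225 CPM at 360 h and 187, 167 and 119.6 CPM at 260 h, a log2 fold change of 0.85 ± 0.30 (SE; adjusted p = 0.0518, edgeR), and passed the threshold in 6 of 16 alternatives, none of which left out a library. No overlap between the times was seen in KO for 5 of the 8 genes, against 46% of all genes tested.

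In WT cells Terb1 and Spdya rose between the times, and Majin, Sun2 and Lmnb1 fell, where 39.9% of all genes tested were called, 20.9% higher and 18.9% lower. The times did not overlap for 5 of the 8 genes in WT, against 50.6% of all genes tested. These WT libraries at 360 h also serve the KO comparison at 360 h, so the values are not independent of it. Terb1 averaged 118 ± 36.1 CPM at 360 h and 34.3 ± 3.35 CPM at 260 h in WT (SD, n = 3 each), a log2 fold change of 1.79 ± 0.27 (SE; edgeR adjusted p = 1.53e-04), called in 17 of 17 alternatives. Terb2 averaged 56.1 ± 10.4 CPM at 360 h and 59.9 ± 9.14 CPM at 260 h and was not called (log2 fold change -0.09 ± 0.28, SE, 95% interval -0.68 to 0.49; edgeR adjusted p = 0.814).

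Spdya in WT had 407, 467 and 338 CPM at 360 h, against 116, 198 and 256 CPM at 260 h, with no overlap. The log2 fold change was 1.09 ± 0.30 (SE; adjusted p = 0.00994, edgeR). Against WT library 3 as the lone 260 h library it was 0.64 (edgeR adjusted p = 0.334). Majin in WT had 52.5, 67.7 and 76.9 CPM at 360 h, against 89.4, 129 and 149 CPM at 260 h, a log2 fold change of -0.90 ± 0.28 (SE; adjusted p = 0.0185, edgeR). Its call held in 9 of 17 alternatives: the edgeR adjusted p was 0.486 with spike-in scaling, 0.0923 with no filter, 0.0591 with all barcodes of at least 500 genes, 0.0534 with WT library 3 as the lone 260 h library, 0.0678 and 0.0926 without WT library 2 or 3 at 260 h, and 0.112 and 0.0658 without WT library 1 or 2 at 360 h.

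Sun2 in WT had 5.68, 3.77 and 3.50 CPM at 360 h, against 8.75, 9.78 and 13.8 CPM at 260 h, a log2 fold change of -1.33 ± 0.45 (SE; adjusted p = 0.0297, edgeR). The call held in 9 of 17 alternatives. The edgeR adjusted p was 0.106 without WT library 3 at 260 h, 0.131 and 0.100 without WT library 2 or 3 at 360 h, 0.110 without pre-meiotic class cells, 0.129 with no filter, 0.0648 with WT library 3 as the lone 260 h library, 0.0506 with the replicate number as a block and 0.251 with spike-in scaling. Pre-meiotic class cells were 16.2% to 46.2% of the WT libraries at 260 h, and Sun2 had its highest median there among the authors' k-means clusters.

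Lmnb1 in WT had 15.5, 11.98 and 34.7 CPM at 360 h, against 27.9, 43.0 and 86.2 CPM at 260 h, so that the times overlapped. The log2 fold change was -1.34 ± 0.44 (SE; adjusted p = 0.0255, edgeR). The edgeR adjusted p was 0.202 without WT library 3 at 260 h, 0.0990 and 0.138 without WT library 1 or 2 at 360 h, 0.0548 with only the WT libraries in the fit and 0.316 with spike-in scaling. Lmnb2 in WT was not called in all kept cells (log2 fold change 0.49, edgeR adjusted p = 0.385), and was higher at 360 h by 1.58 (adjusted p = 0.00971) without pre-meiotic class cells. Sun1 in WT was not called in all kept cells (log2 fold change -0.55 ± 0.26, SE; edgeR adjusted p = 0.102), although the times did not overlap, and it fell by 0.78 (adjusted p = 0.0232) without pre-meiotic class cells.

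The authors' 5 k-means clusters nearly coincided with class and library. Cluster 1 (137 cells) was the pre-meiotic class from all groups, cluster 2 (88 cells) was WT libraries 1 and 2 at 260 h with 7 KO cells at 360 h, cluster 3 (214 cells) was KO at 260 h with WT library 3 at 260 h, cluster 4 (222 cells) was KO at 360 h and cluster 5 (268 cells) was WT at 360 h, each with at most 2 cells from another library. Because the clusters were made from the same counts, the levels per cluster are a description with no test. They are CPM without TMM scaling, over libraries with at least 10 cells in the cluster.

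The linker genes had separate orders over the clusters. Terb1 had its highest median in cluster 4, at 178 CPM (range 169 to 194 over 3 libraries), then 76.4 in cluster 5 (75.4 to 132), 51.7 in cluster 2 (47.4 to 56.1), 49.0 in cluster 3 (36.2 to 51.5) and 15.7 in cluster 1 (8.79 to 56.8). Terb2 also had its highest median in cluster 4, at 178 (176 to 217), followed by cluster 2 at 93.8 (88.3 to 99.2), cluster 3 at 68.7 (60.2 to 96.5), cluster 5 at 40.0 (38.1 to 55.9) and cluster 1 at 33.4 (16.9 to 102). For both genes the ranges of clusters 1, 2 and 3 overlapped one another, and for Terb2 that of cluster 1 also took in cluster 5. Majin was at 164 in cluster 2 (163.5 to 165), 146 in cluster 3 (125 to 171) and 144 in cluster 4 (128 to 160.04). The range of cluster 3 for Majin took in both of its neighbours. Majin was at 49.2 in cluster 5 (44.2 to 63.3) and 39.2 in cluster 1 (19.6 to 82.6), whose ranges also overlapped. The highest cluster 1 values of Terb1 and Terb2 came from the 10 pre-meiotic class cells of KO library 3 at 360 h.

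The envelope genes and Spdya ran otherwise. Spdya had medians of 57.3 CPM in cluster 1 (30.4 to 127), 233 in cluster 2 (216 to 249.6), 247 in cluster 3 (222 to 297), 301 in cluster 4 (249 to 325) and 338 in cluster 5 (281 to 343), and the ranges of neighbours from cluster 2 to cluster 5 overlapped. Sun1 was at 155 in cluster 2 (150 to 159) and 152 in cluster 3 (145 to 203). It was at 123 in cluster 4 (84.3 to 134), 92.4 in cluster 1 (82.5 to 143) and 76.4 in cluster 5 (62.6 to 90.0), whose ranges overlapped. Sun2 had its highest median in cluster 1, at 23.8 (12.5 to 36.1, overlapping 4.69 to 14.2 in cluster 3), and its lowest in cluster 5, at 2.92 (2.68 to 4.51). Lmnb1 was at 73.6 in cluster 3 (61.9 to 87.8) and 53.8 in cluster 1 (28.1 to 103), against 20.9 in cluster 4 and 12.8 in cluster 5. The Lmnb1 range of cluster 4 (20.7 to 21.1) lay inside that of cluster 5 (8.25 to 28.8). Lmnb2 had its highest median in cluster 1, at 28.3 (18.02 to 49.1, overlapping 8.46 to 24.7 in cluster 5), and its lowest in cluster 2, at 6.07 (4.49 to 7.65).

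**Figure D4:**
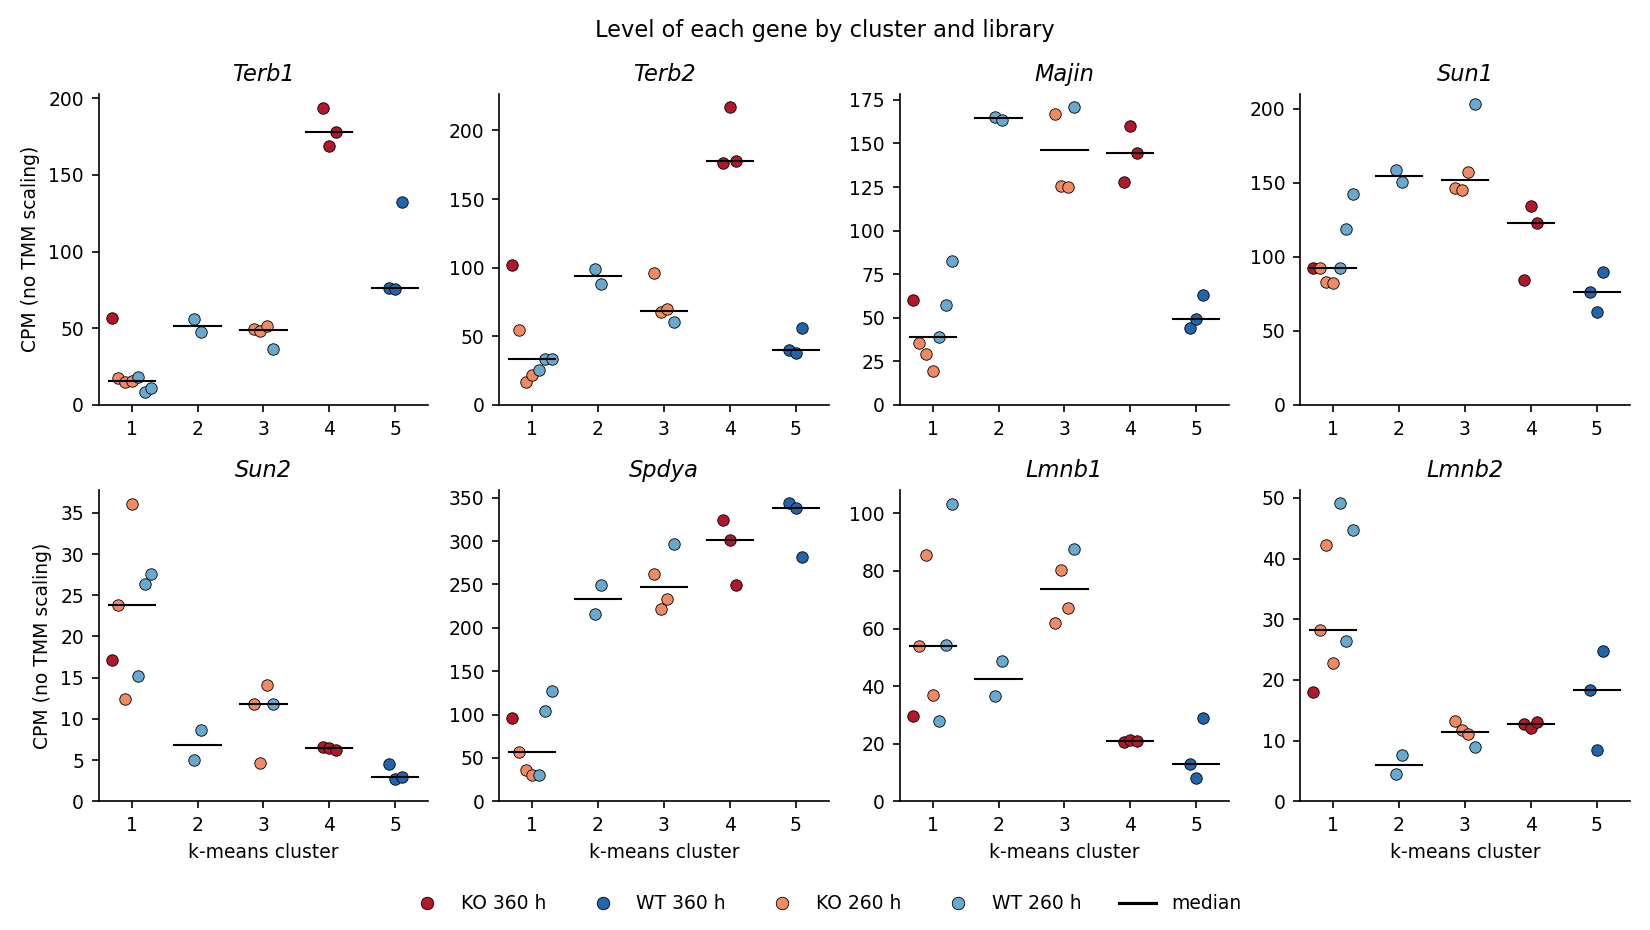
CPM without TMM scaling of the 8 genes in each k-means cluster, 1 point per library with at least 10 cells in that cluster, coloured by group, with the median as a line; axes are linear from 0. Terb1 and Terb2 are highest in cluster 4 (KO at 360 h), at medians of 178 each, while Majin in cluster 4 lies within the range of cluster 3. Sun2 and Lmnb2 have their highest medians in cluster 1, with ranges that overlap another cluster.

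Other genes of the telomere cap and the envelope were counted from lists chosen with earlier results of these data known. Of 16 shelterin, CST and telomerase genes, 2 were higher and 0 lower in KO at 360 h, with a median log2 fold change of -0.03. Over all genes tested 8.93% were higher and 13.5% lower, with a median of 0.03, and the counts of this list and the next 3 are read against these shares. Pot1a, the shelterin subunit that binds single-stranded telomeric DNA, averaged 44.5 ± 3.82 CPM in KO and 4.10 ± 1.52 CPM in WT at 360 h (SD, n = 3 each), a log2 fold change of 3.45 ± 0.36 (SE; edgeR adjusted p = 1.06e-05). It stood at 34.6 ± 4.15 CPM in KO and 25.3 ± 5.28 CPM in WT at 260 h, where it was not called (edgeR adjusted p = 0.655). Dclre1b, the Apollo nuclease that trims telomere ends, averaged 32.4 ± 2.36 CPM in KO and 10.02 ± 1.74 CPM in WT at 360 h (log2 fold change 1.69, edgeR adjusted p = 0.00201, and 0.178 with spike-in scaling).

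Of 21 tested genes of the KASH proteins and the dynein motor, 0 were higher and 2 lower in KO at 360 h, with a median of -0.41. The values over all genes were 8.93% higher, 13.5% lower and a median of 0.03. Dync1li2, a dynein light intermediate chain, averaged 107 ± 5.87 CPM in KO and 236 ± 28.0 CPM in WT at 360 h (log2 fold change -1.14, edgeR adjusted p = 0.00143). Dctn2, a dynactin subunit, averaged 191 ± 53.7 CPM in KO and 363 ± 42.6 CPM in WT (log2 fold change -0.93, edgeR adjusted p = 0.0376), and was called in 8 of 16 alternatives, not without WT library 1 (0.0702) or 3 (0.105) or KO library 2 (0.124) or 3 (0.188) at 360 h.

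Of 19 lamina and inner membrane genes, 2 were higher and 2 lower in KO at 360 h, near the shares over all genes (8.93% higher, 13.5% lower), with a median of -0.09. Tor1b, a torsin ATPase of the envelope, averaged 17.5 ± 0.99 CPM in KO and 42.7 ± 9.67 CPM in WT (log2 fold change -1.29, edgeR adjusted p = 0.00675). Rce1, which processes prenylated proteins including lamins, averaged 21.7 ± 4.80 CPM in KO and 51.6 ± 8.01 CPM in WT (log2 fold change -1.25, edgeR adjusted p = 0.0139, but 0.0554 without WT library 1 and 0.0823 without KO library 3). Narf, a binder of prelamin A, differed by 1.27 (edgeR adjusted p = 0.0235, 0.0596 to 0.141 without any 1 library other than KO library 1) and Banf1, which bridges chromatin and the envelope, by 0.76 (adjusted p = 0.0446, 0.0586 to 0.182 without any 1 library).

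Of 30 nuclear pore genes, 3 were higher and 4 lower in KO at 360 h, near the shares over all genes (8.93% higher, 13.5% lower), with a median of -0.15. Nup210, a membrane-spanning pore protein, averaged 64.5 ± 4.69 CPM in KO and 3.75 ± 0.68 CPM in WT at 360 h (SD, n = 3 each), a log2 fold change of 4.11 ± 0.40 (SE; edgeR adjusted p = 6.25e-06). Nup93, a scaffold subunit, averaged 103 ± 19.5 CPM in KO and 48.2 ± 5.70 CPM in WT (log2 fold change 1.09, edgeR adjusted p = 0.00345, but 0.454 with spike-in scaling). Pom121 averaged 23.4 ± 3.14 CPM in KO and 57.5 ± 6.93 CPM in WT (log2 fold change -1.29, edgeR adjusted p = 0.00468), and Nup35 25.9 ± 4.95 CPM in KO and 59.7 ± 17.9 CPM in WT (log2 fold change -1.20, adjusted p = 0.0135, but 0.0723 without KO library 3).

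Nup210 was also the 1 gene of the 4 lists called at 260 h, at 44.4 ± 0.80 CPM in KO and 12.7 ± 6.75 CPM in WT (SD, n = 3 each), a log2 fold change of 1.81 ± 0.37 (SE; adjusted p = 0.0195, edgeR). That call held in 10 of 17 alternatives: the edgeR adjusted p was 0.111 without WT library 2, 0.0806, 0.0675 and 0.0652 without KO library 1, 2 or 3, 0.133 against WT library 3 alone, 0.0634 with only the 260 h libraries in the fit and 0.192 with spike-in scaling.

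The genes whose pattern over the 12 libraries was most like a member's were found by the root mean square (RMS) difference of mean-centred log2(CPM + 1), among 6863 genes (6864 for Sun2 and Lmnb2) of mean CPM at or over 20. The libraries share groups, so this is a description. For Terb1 they were Thoc5 (RMS 0.30), Cystm1 and Chaf1b, with a median RMS of 1.15 over all candidates. For Terb2 they were Slc7a6 (RMS 0.20), Vps53 and Mettl8, with a median of 0.98. For Majin they were Rad51c (RMS 0.17), Ddx41 and Cnih4, with a median of 0.76. Rad51c encodes a protein of homologous recombination and Chaf1b a chromatin assembly factor subunit. For Spdya they were Tedc1 (RMS 0.16), Letm2 and Sh3gl3, for Sun1 Tmem59 (RMS 0.12), Cops8 and Snx4, for Sun2 Rrp12 (RMS 0.24) and Rcc2, for Lmnb1 Thumpd1 (RMS 0.13), Hdgfl3 and Anp32b, and for Lmnb2 Fam172a (RMS 0.27), Riok3 and Esco1. Sun2 and Lmnb2 fell under the limit of 20 CPM and were not candidates, so only the other members could be listed. None of those was among the 3 nearest genes of another member.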

How the data were processed

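RNA of single mouse spermatocytes was measured by a modified Smart-seq2 protocol with 3′-end capture, per the labels' protocols. The deposited values are raw UMI counts per gene and cell barcode, made by the authors. Tools in the submitters' processing notes are featureCounts 1.6.4, STAR 2.5.3a and UMI-tools 1.0.0, with the mm10 build, but the sources used here give no settings or strandedness. The 929 cells of 1152 barcodes in the authors' deposited cell table were used, with its classes and k-means clusters. All 12 libraries share the same 96 plate barcodes. Doublets were not called, since cells were picked singly by hand, and the sources used here mention no doublet removal.

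Counts were summed per library, leaving out 92 ERCC sequences. Genes were filtered by filterByExpr, scaled by TMM and tested with edgeR 4.0.16 (R 4.3.3; quasi-likelihood F-test, robust, 12 libraries, 1 coefficient per group; classes were fitted on their 6 libraries), with Benjamini-Hochberg adjusted p under 0.05. SE is the log2 fold change over the root of F. DESeq2 1.42.0 and limma 3.58.1 were alternatives. The script was tested on simulated data. Libraries of a group differed by a chi-square of at least 9.61 per degree of freedom, so none was a duplicate. Counts limit precision: Sun2 rested on 37 to 189 UMIs a library.

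The 8 genes and the lists were chosen with earlier results of these data known. Named besides the 8 genes were, per list, the called genes with the 4 smallest adjusted p at 360 h, any called at 260 h, and the 3 genes most like each member, passing over mitochondrial genes, names that are accessions, and symbols of the Gm or Rik kind; 1 of these is not reported here. Other scalings, filters, cell sets, a replicate block and leaving out each library were tried as alternatives.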

Additional observations from a re-analysis of the deposited data

Results flagged for a closer look

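The KO effect of Terb2 differed between the collection times: KO minus WT on the log2 scale was 1.73 at 360 h and -0.08 at 260 h, a difference of 1.81 ± 0.39 (SE; adjusted p = 0.0146, edgeR's quasi-likelihood test of the difference). At 360 h, 3 of 3 KO libraries were above every WT library, and at 260 h the genotypes overlapped.

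The KO effect of Majin differed in the same direction: it was 1.08 at 360 h and -0.39 at 260 h, a difference of 1.47 ± 0.39 (SE; adjusted p = 0.0419, edgeR's quasi-likelihood test of the difference). At 360 h, 3 of 3 KO libraries were above every WT library. The Majin value passed the threshold in 8 of 22 alternatives, with adjusted p-values from 0.0105 to 0.443, and the Terb2 value in 19 of 22, from 0.00101 to 0.332.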

How the results depend on the processing

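Of 77 log2 fold changes of single genes, 22 changed sign under some alternative, 0 of which were called. Spike-in scaling left 0 members higher for KO against WT at 360 h (main 2), 0 lower for 360 h against 260 h in KO (1) and in WT (3), and 0 for the difference of KO effects (2). It gave Terb1 -0.060, Sun1 -0.32 and Lmnb1 -0.67 at 360 h, Terb1 -0.24, Sun2 -0.11, Lmnb1 -0.39 and Lmnb2 -0.15 at 260 h, Sun1 0.22 over time in KO and Terb2 0.44 over time in WT. With DESeq2 size factors, Lmnb1 at 360 h was -0.029, Terb1 at 260 h -0.026, Sun1 over time in KO 0.039 and Terb2 over time in WT 0.023. The DESeq2 test gave -0.028, -0.023, 0.039 and 0.024 for the same 4 values. With no filter, 1 member was lower over time in WT and 1 higher for the difference, Terb1 at 260 h was -0.070, Sun1 over time in KO 0.10 and Lmnb1 in pre-meiotic cells 0.0099. Using only the libraries compared, the Terb1 and Sun1 values were -0.024 and 0.0013. Using every barcode with 500 or more genes, 1 member was higher for the difference, Terb1 at 260 h was -0.078, Lmnb2 at 260 h -0.011, Sun1 over time in KO 0.18 and Terb2 over time in WT 0.033. Without pre-meiotic cells Lmnb2 over time in KO was 0.17. With WT library 3 as the lone WT library at 260 h (added after the data were seen), 1 member was higher and 1 lower over time in WT and 0 for the difference; at 260 h Sun2 was -0.30 and Lmnb1 -0.64, Terb2 over time in WT was 0.079, the difference was 0.38 for Spdya and 0.74 for Lmnb1, and in early pachytene cells Terb2 was 0.41, Sun2 -0.22 and Lmnb1 -0.29.

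Deviations of libraries with the same replicate number were weakly correlated (r from -0.20 to 0.22 over the comparisons). With 3 libraries a group this cannot settle whether the numbers pair the samples, and the labels do not say. With the replicate number as a block, 1 member was higher for the difference (Majin, adjusted p = 0.0726), Sun2 over time in WT had an adjusted p of 0.0506, and in pre-meiotic cells Terb2 was -0.15 and Lmnb1 0.044.

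Leaving out 1 library gave 1 to 2 members higher in KO at 360 h, 0 to 2 for the difference, 0 to 1 lower over time in KO, 0 to 3 lower over time in WT, and 0 to 1 lower in late pachytene and in pre-meiotic class cells. At 260 h the values ran from -0.14 to 0.10 for Terb1, -0.47 to 0.085 for Terb2, -0.067 to 0.38 for Sun2, -0.21 to 0.69 for Lmnb1 and -0.23 to 0.42 for Lmnb2. Lmnb1 at 360 h ran from -0.29 to 0.65, in late pachytene cells from -0.16 to 0.81, in pre-meiotic cells from -0.40 to 0.61 and for the difference from -0.61 to 0.48. Lmnb2 over time in KO ran from -0.44 to 0.047, Sun1 over time in KO from -0.15 to 0.16, Terb2 over time in WT from -0.23 to 0.054 and Spdya for the difference from -0.52 to 0.10. In early pachytene cells Terb1 ran from -0.086 to 0.35, Terb2 from -0.30 to 0.17 and Spdya from -0.14 to 0.017, and in pre-meiotic cells Terb2 from -0.65 to 0.35 and Sun2 from -0.28 to 0.41. The causes were not tested.

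Counts of all genes called at 260 h were 383, against 953 with DESeq2, 687 with no filter, 600 without pre-meiotic cells, 246 with spike-in scaling, 230 with all barcodes, 192 with limma-voom, 181 in the 260 h libraries alone and 122 with WT library 3 alone. For the difference they were 1030, against 2174 with DESeq2, 1581 with no filter, 636 with WT library 3 alone and 408 with spike-in scaling, and over time 4759 in KO and 8082 in WT, against 2567 with spike-in scaling and 4989 with WT library 3 alone. Pre-meiotic cells gave 4 calls, against 203 with no filter. Leaving out 1 library gave 2600 to 4179 calls at 360 h (main 4554), 115 to 577 at 260 h, 482 to 1133 for the difference, 2764 to 3669 over time in KO, 3707 to 6166 in late pachytene cells (5858), 124 to 936 in early pachytene cells (435) and 0 to 222 in pre-meiotic cells. Spike-in scaling moved the median of all genes by -0.28 at 260 h, 0.19 over time in KO, 0.44 over time in WT and -0.22 for the difference, and DESeq2 size factors moved it by 0.12 over time in WT. Of the called genes, 39.8% were higher in KO at 360 h, 30.8% at 260 h and 45.3% for the difference, against 17.1%, 12.6% and 18.4% with spike-in scaling, and at 260 h 51.6% with limma-voom, 44.8% in the 260 h libraries alone, 41.3% without pre-meiotic cells, 20.0% with all barcodes and 20.5% with WT library 3 alone. Over time 56.6% in KO and 52.5% in WT were higher, against 81.2% and 72.5%.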
